A study of Mus musculus with 8 samples.

Results

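The genes described here encode the interleukin 1 (IL-1) family and its receptors: the ligands Il1a, Il1b, Il18 and Il33, the antagonist Il1rn, and the receptor chains Il1r1, Il1r2, Il1rap and Il1rl1. They were chosen by name, as 9 of the 55418 gene symbols in the deposited count table, and each of the 9 was found there. The RNA came from whole distal colon, with no cell type sorted, of C57BL/6 mice 8 to 10 weeks old, in 4 groups of 2. The groups were wild-type (WT) untreated, WT given dextran sulfate sodium (DSS), ΔNFκB untreated and ΔNFκB given DSS. ΔNFκB is short for the labels' NAIL-ΔNFκB, a mouse line altered at the long noncoding RNA NAIL, and the changed bases are not described. DSS injures the colon epithelium of mice that drink it. Both DSS groups received it at 3% in drinking water for 4 days, then plain water for 4 days.

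IL-1α and IL-1β signal through the receptor IL1R1 together with the accessory chain IL1RAP. The receptor antagonist, product of Il1rn, occupies IL1R1 without signalling, and IL1R2 binds ligand but lacks a signalling tail, so it serves as a decoy. IL-33 uses the receptor ST2, product of Il1rl1, with the same accessory chain, whereas IL-18 has receptor chains of its own. In the colon, IL-18 is known as a product of epithelial cells, IL-33 of stromal and epithelial cells, and IL-1β mainly of myeloid cells.

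Library totals ran from 9229861 to 16935961 counts, and 17522 genes entered the test. Transcripts of the Y chromosome were present in WT untreated replicate 2 and both ΔNFκB untreated mice and close to 0 in the other 5 libraries, so all 4 DSS mice were female and 3 of the 4 untreated mice were male. The DSS effect in ΔNFκB mice can therefore not be told apart from sex without the WT untreated pair, the only group holding both sexes. A sex term in a fit takes its sex effect from that pair alone, a male against a female. None of the 10 colon epithelial markers was at 0 in any group, with a summed level of 15036 to 20792 CPM (reads scaled to library size) in WT untreated mice. All values below are CPM scaled with TMM factors unless a length scale is named, and each group has n = 2.

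Promoter sequences of the IL-1α and IL-1β genes are shown first because these agonists, with Il1r2, rose most with DSS in WT mice, and a promoter of Il1r1 because it held the family's only κB match. Each window is the 250 bases before a RefSeq transcription start in GRCm38.p6 (mm10), read 5′ to 3′ on the gene's strand, and all 9 genes had at least 1 such start. None of the 3 windows overlapped an annotated exon. Capitals mark motif matches.
Il1a, chr2:129309973-129310222, minus strand: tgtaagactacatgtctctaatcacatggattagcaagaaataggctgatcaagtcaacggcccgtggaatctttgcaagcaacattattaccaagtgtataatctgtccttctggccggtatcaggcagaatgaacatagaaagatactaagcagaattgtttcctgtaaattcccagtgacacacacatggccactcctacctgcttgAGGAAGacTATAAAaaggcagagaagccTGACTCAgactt
Il1b, chr2:129371140-129371389, minus strand: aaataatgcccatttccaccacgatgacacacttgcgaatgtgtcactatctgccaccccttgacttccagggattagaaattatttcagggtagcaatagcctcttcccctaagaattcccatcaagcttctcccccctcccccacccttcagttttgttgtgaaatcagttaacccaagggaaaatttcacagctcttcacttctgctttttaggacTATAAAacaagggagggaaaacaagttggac
Il1r1, downstream start, chr1:40266336-40266585, plus strand: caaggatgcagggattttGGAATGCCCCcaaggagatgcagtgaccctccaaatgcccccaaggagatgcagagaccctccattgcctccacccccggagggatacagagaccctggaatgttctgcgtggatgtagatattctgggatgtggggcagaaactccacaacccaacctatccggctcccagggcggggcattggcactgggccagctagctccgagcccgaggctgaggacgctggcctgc

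In Il1a the capitals are, in order, the PU.1 motif AGGAAG, the TATA motif TATAAA and the AP-1 motif TGANTCA, the last lying 12 to 6 bases before the start. In Il1b the only capitals are TATAAA, 31 to 26 bases before the start, and in Il1r1 they are a κB match on the opposite strand, 232 to 223 bases before it. Both strands were searched, and no match overlapped another. Among 32851 promoters of this length, TATAAA occurred in 12.4%, AGGAAG in 29.5%, the AP-1 motif in 6.75% and the κB motif in 7.25%. The C/EBP motif TTGCNNAA, found in 9.56%, matched in windows of Il1r1 (at its upstream start), Il1rl1 and Il33. Elsewhere in the family TATAAA matched in Il18 and Il33, AGGAAG in Il1rap and Il33, and the AP-1 motif in Il1rn. These are matches of letters, not measured binding.

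**Figure D1:**
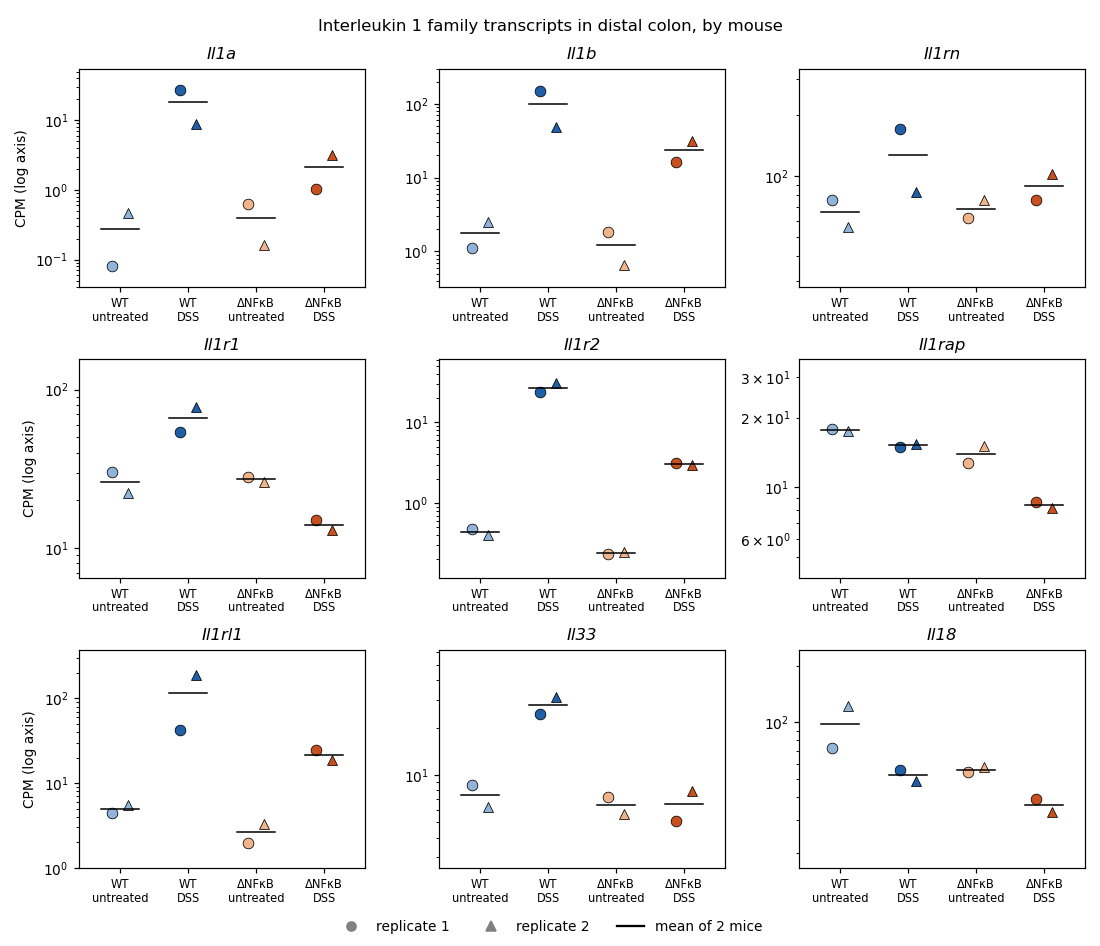
CPM of the 9 genes in each of the 8 libraries, by group, on log axes; points are mice and bars are group means. Il1a, Il1b, Il1r2 and Il1rl1 lie higher in each DSS mouse than in any untreated mouse, and Il1rap and Il18 lie lowest in the ΔNFκB DSS mice.

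Il1b (ENSMUSG00000027398, chr2:129364570-129371139, minus strand) encodes IL-1β, the inflammatory cytokine released after cleavage by caspase 1. It measured 1.12 and 2.48 CPM in the WT untreated mice and 151 and 48.7 in the WT DSS mice. In ΔNFκB mice it measured 1.81 and 0.651 untreated and 16.4 and 31.1 after DSS. The DSS mice were above the untreated mice in both genotypes, and both WT DSS mice were above both ΔNFκB DSS mice, although the WT DSS pair itself spread 3.09-fold. Il1b rose with DSS in WT mice by 5.75 on the log2 scale (SE 0.69, 53.9-fold, adjusted p = 0.000855, edgeR quasi-likelihood test with Benjamini-Hochberg adjustment over all 17522 genes, used for every adjusted p here). It also rose in ΔNFκB mice, by 4.25 (SE 0.74, adjusted p = 0.00339). Both calls held under each alternative setting tried, but the size did not: the WT value was 4.71 without WT DSS replicate 1, 6.34 with the other mouse of that pair omitted and 6.49 without WT untreated replicate 2, and the ΔNFκB value 5.18 without ΔNFκB untreated replicate 1. Because whole tissue was sequenced, more cells of a type and more RNA per cell cannot be told apart here or below.

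Il1a (ENSMUSG00000027399, chr2:129299610-129309972, minus strand) encodes IL-1α, which is active without cleavage and is released by damaged cells. Its levels were near the detection limit in untreated mice, at 0.0798 and 0.469 CPM in WT (8 counts over the pair) and 0.631 and 0.163 in ΔNFκB (10 counts). After DSS it reached 27.6 and 8.97 CPM in WT and 1.02 and 3.19 in ΔNFκB mice. Untreated and DSS mice did not overlap in either genotype, nor did the 2 DSS groups. The gene rose by 5.93 on the log2 scale in WT (SE 0.89, adjusted p = 0.00205), while the difference of 2.37 in ΔNFκB mice did not pass (SE 0.97, adjusted p = 0.0904; 0.0107 with DESeq2 and 0.0159 without a count filter). The WT value was 4.91 without WT DSS replicate 1, 6.53 without replicate 2, 5.27 without WT untreated replicate 1 and 7.67 without replicate 2. Of its exon bases, 11.2% are shared with Gm14023 on the other strand, and no strand setting is given in the sources used here. Il1a and Il1r2 passed the count filter only through their DSS libraries.

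Of all genes tested, 17.2% rose and 18.8% fell with DSS in WT mice, and 16.2% rose and 19.2% fell in ΔNFκB mice. These shares stand beside each list count for DSS below. Between untreated and DSS mice, neutrophil markers moved the same way as Il1a and Il1b. Within the WT DSS pair their sum did not, at 574 CPM in replicate 1 and 705 in replicate 2. Il1a and Il1b were higher in replicate 1. Single markers went both ways there, such as Csf3r (53.3 and 23.9 CPM) and S100a8 (64.5 and 123 CPM). Of 12 such markers, 11 rose with DSS in WT mice and 10 in ΔNFκB mice, and their summed level ran 99.3 to 233 CPM (WT untreated), 574 to 705 (WT DSS), 92.6 to 137 (ΔNFκB untreated) and 178 to 219 (ΔNFκB DSS). One marker, Ly6g, made up 97.3% and 98.6% of the sum in WT untreated and 80.3% and 98.2% in untreated ΔNFκB mice. The other 11 markers summed to 2.63 and 3.29 CPM in WT untreated mice and 373 and 460 CPM in WT DSS mice. In ΔNFκB mice they summed to 18.2 and 2.44 CPM without DSS and 97.3 and 107 CPM with it. Without Ly6g the DSS mice were above the untreated mice in both genotypes, and WT DSS mice above ΔNFκB DSS mice. The markers Retnlg, Mmp8 and Ngp were at 0 in WT untreated mice. In each untreated mouse Cxcr2, Retnlg, Mmp8, Trem1 and Clec4d were below the count filter, with little room for a lower call. With a sex term the ΔNFκB count was 3 of 12. Monocyte and macrophage markers moved less, with 2 of 12 higher in WT and 3 of 12 in ΔNFκB mice (1 with a sex term), and sums of 291 to 301 CPM, 392 to 432, 270 to 301 and 279 to 293 in the same order; none was at 0. The part of these cells in the Il1a and Il1b differences, and in those of Il1r2 below, was not tested.

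Il1rn (ENSMUSG00000026981, chr2:24336853-24351494, plus strand) encodes the receptor antagonist; counts per gene do not separate its secreted and intracellular forms. Unlike Il1a it was well above the detection limit without treatment, at 76.0 and 56.0 CPM in WT and 61.6 and 75.8 in ΔNFκB mice. It measured 169.9 and 83.5 CPM in WT DSS mice and 76.1 and 102 in ΔNFκB DSS mice. Replicate 1 of WT DSS, which was also highest for Il1a and Il1b, stood above all other mice, and the 2 DSS groups overlapped. The WT increase of 0.94 on the log2 scale was just past the threshold (SE 0.32, adjusted p = 0.0479). That call was lost with limma-voom, the replicate block, a sex term (adjusted p = 0.196) or a fit of only the 2 groups, and without any 1 library other than WT DSS replicate 2. In ΔNFκB mice the difference was 0.38 (SE 0.32, adjusted p = 0.385).

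The balance of antagonist and agonist was compared within libraries, as the ratio of Il1rn to Il1b per exon length with 0.5 added to each count. It was 22.6 and 7.68 in WT untreated, 11.5 and 37.8 in untreated ΔNFκB, 0.388 and 0.59 in WT DSS and 1.596 and 1.13 in ΔNFκB DSS mice. Per exon length, antagonist transcript thus outnumbered agonist transcript in each untreated mouse and was below it in both WT DSS mice. The order in WT DSS mice rests on the length scale. Unscaled counts were 1759 for Il1rn and 1560 for Il1b in replicate 1, and 912 and 532 in replicate 2. Annotated exon lengths were 5535 bases for Il1rn and 1907 for Il1b, and this scale understates a gene transcribed as a shorter form. The mean log2 ratio was -0.32 ± 0.92 (SD, n = 4) in DSS mice and 4.05 ± 1.02 (SD, n = 4) in untreated mice. The difference of -4.37 had a two-sided exact permutation p = 0.0286, the smallest that 4 against 4 libraries can give. Benjamini-Hochberg adjustment over the 3 ratios compared here left it at 0.0286, as all 3 had the same p. Each ratio holds a gene that rose many-fold with DSS, Il1b or Il1r2, so its p gives no separate support for a DSS response. The DSS mice were all female and most untreated mice male, so sex also differed between the pooled arms. Libraries were permuted freely across the genotypes. With same-numbered mice as 4 pairs, a sign-flip permutation test gave p = 0.125 for each ratio, the smallest that 4 pairs can give.

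Il1r1 (ENSMUSG00000026072, chr1:40225080-40317257, plus strand) encodes the signalling receptor for both agonists. It measured 30.3 and 22.3 CPM in WT untreated and 28.2 and 26.1 in ΔNFκB untreated mice. After DSS it measured 53.9 and 78.0 CPM in WT but 15.0 and 13.0 in ΔNFκB mice. The untreated groups overlapped, and DSS mice lay above them in WT and below them in ΔNFκB. Il1r1 rose by 1.33 on the log2 scale in WT (SE 0.21, adjusted p = 0.00257) and fell by 0.96 in ΔNFκB mice (SE 0.22, adjusted p = 0.0115). The fall was not past the threshold without ΔNFκB untreated replicate 1 or ΔNFκB DSS replicate 2.

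Il1r2 (ENSMUSG00000026073, chr1:40074079-40125231, plus strand) encodes the decoy receptor. It was barely detected without treatment, at 0.479 and 0.402 CPM in WT (12 counts over the pair) and 0.237 and 0.244 in ΔNFκB (6 counts). After DSS it measured 23.6 and 30.4 CPM in WT and 3.18 and 2.99 in ΔNFκB mice. No groups overlapped, and the pairs of mice spread at most 1.29-fold. Il1r2 rose by 5.91 on the log2 scale in WT (SE 0.27, 60.2-fold, adjusted p = 1.81e-05), and, in ΔNFκB mice, by 3.62 (SE 0.34, 12.3-fold, adjusted p = 0.000293). Both calls held under each alternative.

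The ratio of decoy to signalling receptor per exon length was 0.057 and 0.0652 in WT untreated, 0.0326 and 0.0363 in untreated ΔNFκB, 1.46 and 1.30 in WT DSS and 0.717 and 0.778 in ΔNFκB DSS mice. On this length scale decoy transcript was therefore a small fraction of receptor transcript before DSS and of the same order after it in both genotypes. The mean log2 ratio was 0.021 ± 0.52 (SD, n = 4) with DSS and -4.45 ± 0.49 (SD, n = 4) without, a difference of 4.47 (exact permutation p = 0.0286, two-sided).

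**Figure D2:**
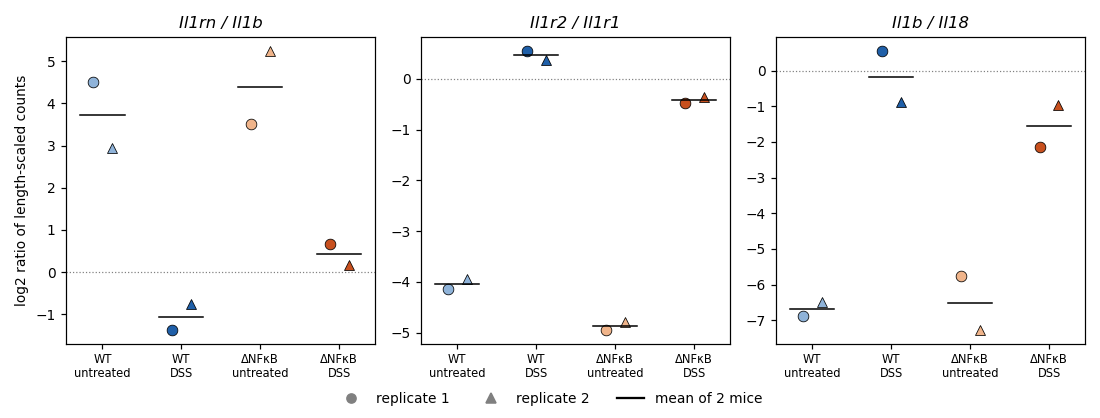
Ratios per exon length of Il1rn to Il1b, Il1r2 to Il1r1 and Il1b to Il18 in each library, on log2 axes, by group. In each panel the 4 DSS mice lie apart from the 4 untreated mice: lower for Il1rn to Il1b, higher for the other two.

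Il1rap (ENSMUSG00000022514, chr16:26581704-26730117, plus strand) encodes the accessory chain that the IL-1 and IL-33 receptors share. It measured 17.9 and 17.5 CPM in WT untreated and 12.8 and 15.1 in ΔNFκB untreated mice. After DSS it measured 15.0 and 15.4 CPM in WT and 8.61 and 8.14 in ΔNFκB mice, the lowest levels of the 8 mice. The WT difference of -0.22 on the log2 scale was not past the threshold (SE 0.15, adjusted p = 0.28), and in ΔNFκB mice the gene fell by 0.74 (SE 0.16, adjusted p = 0.00888). The ΔNFκB call was lost with a sex term and without ΔNFκB untreated replicate 2 or ΔNFκB DSS replicate 2. Gm20319 shares 4.86% of its exon bases.

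Il33 (ENSMUSG00000024810, chr19:29925114-29960718, plus strand) encodes a nuclear alarmin that damaged cells release. It measured 8.70 and 6.30 CPM in WT untreated and 7.26 and 5.69 in ΔNFκB untreated mice. After DSS it measured 24.5 and 31.2 CPM in WT and 5.12 and 7.94 in ΔNFκB mice. WT DSS mice stood above the other 6, which overlapped. Il33 rose by 1.90 on the log2 scale in WT (SE 0.26, 3.72-fold, adjusted p = 0.00156). In ΔNFκB mice the difference was 0.011 (SE 0.28, adjusted p = 0.979), whose sign turned with upper quartile factors, limma-voom and a sex term.

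Its receptor gene Il1rl1 (ENSMUSG00000026069, chr1:40429570-40465415, plus strand) gives a membrane form and a soluble form of ST2, which counts per gene do not separate. It measured 4.39 and 5.50 CPM in WT untreated and 1.97 and 3.25 in ΔNFκB untreated mice. After DSS it measured 42.1 and 189 CPM in WT and 24.8 and 18.5 in ΔNFκB mice. No groups overlapped, but the WT DSS mice differed 4.49-fold from each other, the widest spread among the 9 genes in DSS mice. Il1rl1 rose by 4.54 on the log2 scale in WT (SE 0.66, adjusted p = 0.00187) and, in ΔNFκB mice, by 3.05 (SE 0.71, adjusted p = 0.0119). The WT value was 5.24 without WT DSS replicate 1 and 3.08 without replicate 2. The ΔNFκB call was lost with limma-voom, with a sex term, and without ΔNFκB untreated replicate 1 or ΔNFκB DSS replicate 1.

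Within the WT DSS pair, replicate 1 was higher for Il1a, Il1b and Il1rn, and replicate 2 for Il1r1, Il1r2, Il33 and Il1rl1. The summed fibroblast and stromal markers were 1357 CPM in replicate 1 and 2043 in replicate 2, and the endothelial markers 129 and 170. The neutrophil sum was also higher in replicate 2, at 574 and 705 CPM. The monocyte and macrophage sum was higher in replicate 1, at 432 and 392 CPM. Over the groups the stromal sum ran 812 to 1169 CPM (WT untreated), 1357 to 2043 (WT DSS), 1082 to 1083 (ΔNFκB untreated) and 403 to 510 (ΔNFκB DSS). Of 10 stromal markers, 6 rose and 1 fell with DSS in WT mice, and 6 fell and 0 rose in ΔNFκB mice; none was at 0. The count that rose in WT was 1 with a sex term and without WT untreated replicate 2 or WT DSS replicate 2, and the count that fell in ΔNFκB was 3 without ΔNFκB untreated replicate 1 or ΔNFκB DSS replicate 2. Endothelial markers ran 94.2 to 126 CPM, 129 to 170, 96.9 to 125 and 28.9 to 40.1 in the same order, with 3 of 8 higher and 2 lower in WT and 6 lower in ΔNFκB mice, and none at 0. The same omissions left 0 endothelial markers higher in WT and 2 lower in ΔNFκB mice. Mast cell markers, of a cell type known to carry ST2, summed to 48.5 to 51.4 CPM, 40.0 to 69.9, 45.1 to 49.5 and 21.5 to 21.7, and 3 of 9 passed the count filter. That sum does not measure mast cells: Kit, which other gut cells carry too, made up 88.0% to 94.6% of it in untreated mice, and in WT DSS mice Hdc added 50.7 and 16.3 CPM. The other marker past the filter was Cma1, at 3.59 and 3.89 CPM in WT untreated and 0.29 and 0.366 in WT DSS mice. In ΔNFκB mice it measured 2.37 and 1.55 CPM untreated and 3.79 and 3.92 after DSS. Of the 3 markers past the filter, 1 rose and 2 fell with DSS in WT mice, and 2 rose and 1 fell in ΔNFκB mice. The remaining genes Cpa3, Fcer1a, Ms4a2, Tpsb2, Tpsab1 and Mcpt4 were each below 1 CPM in each library and together reached at most 1.68 CPM. Over the WT untreated and WT DSS pairs they had 11 and 2 counts for Cpa3, 2 and 0 for Fcer1a, 0 and 3 for Ms4a2, 10 and 1 for Tpsb2, 1 and 2 for Tpsab1 and 6 and 0 for Mcpt4. The part of these cells in the Il1r1, Il33 and Il1rl1 differences was not tested.

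Il18 (ENSMUSG00000039217, chr9:50554827-50581840, plus strand) encodes IL-18, made as a precursor that caspase 1 cleaves. It measured 73.3 and 123 CPM in WT untreated and 54.3 and 57.4 in ΔNFκB untreated mice. After DSS it measured 55.7 and 48.7 CPM in WT and 39.0 and 33.0 in ΔNFκB mice. The groups did not overlap within a genotype, and the highest mouse was WT untreated replicate 2, the male of that pair. Il18 fell by 0.91 on the log2 scale in WT (SE 0.22, adjusted p = 0.015). Without WT untreated replicate 2 the difference was -0.46 and not past the threshold, and the call was also lost without either WT DSS mouse. In ΔNFκB mice the difference of -0.63 did not pass (SE 0.23, adjusted p = 0.0601); it passed in 6 alternatives, and with a sex term it was 0.11.

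Colon epithelial markers moved the same way as Il18 in WT mice, where 8 of 10 fell (5 without WT DSS replicate 2) and their sum went from 15036 to 20792 CPM without DSS to 6948 to 7252 with it. In ΔNFκB mice 2 of 10 fell and 1 rose, with sums of 13132 to 15207 CPM untreated and 12242 to 13263 after DSS. Their part in the Il18 difference was not tested. The ratio of Il1b to Il18 per exon length was 0.00853 and 0.011 in WT untreated, 0.0185 and 0.0065 in untreated ΔNFκB, 1.46 and 0.541 in WT DSS and 0.227 and 0.51 in ΔNFκB DSS mice. Only in WT DSS replicate 1 did Il1b exceed Il18. The mean log2 ratio was -0.86 ± 1.10 (SD, n = 4) with DSS and -6.60 ± 0.64 (SD, n = 4) without, a difference of 5.74 (exact permutation p = 0.0286, two-sided).

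Levels were put in order within each group as CPM per kilobase of annotated exon, a scale that understates genes transcribed as a shorter form. In WT untreated mice Il18 was highest at 95.2 ± 34.1 CPM per kb (SD, n = 2), then Il1rn at 11.9 ± 2.56, Il1r1 at 4.13 ± 0.90, Il33 at 2.60 ± 0.59 and Il1rap at 1.56 ± 0.024. Il1b (0.94 ± 0.51) and Il1rl1 (0.72 ± 0.11) did not differ beyond their spread, nor did Il1r2 (0.23 ± 0.028) and Il1a (0.14 ± 0.14) at the bottom. In WT DSS mice Il1b, at 52.3 ± 37.8 CPM per kb, was not separable from Il18 at 50.6 ± 4.80. Below them Il1rn (22.9 ± 11.0), Il1rl1 (16.8 ± 15.1) and Il1r2 (14.1 ± 2.53) lay within each other's spread, as did Il1r1 (10.4 ± 2.68), Il33 (9.66 ± 1.64) and Il1a (9.27 ± 6.68). Il1rap was last at 1.34 ± 0.026.

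The ΔNFκB untreated order was close to that of WT, led by Il18 at 54.2 ± 2.17 CPM per kb, Il1rn at 12.4 ± 1.82 and Il1r1 at 4.27 ± 0.24. In ΔNFκB DSS mice Il18 still led at 34.9 ± 4.15 CPM per kb, followed by Il1rn at 16.1 ± 3.34 and Il1b at 12.5 ± 5.46, the last pair within their spread. Il1rl1 (3.14 ± 0.64), Il33 (2.26 ± 0.69) and Il1r1 (2.20 ± 0.22) followed, then Il1r2 at 1.62 ± 0.069, Il1a at 1.07 ± 0.78 and Il1rap at 0.74 ± 0.029. By group means alone Il1b thus ranked 6 of 9 per length in both untreated groups, 1 of 9 in WT DSS and 3 of 9 in ΔNFκB DSS mice. Its rank in WT DSS mice rests on replicate 1. In WT DSS replicate 2 Il18 was at 47.2 CPM per kb and Il1b at 25.5.

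**Figure D3:**
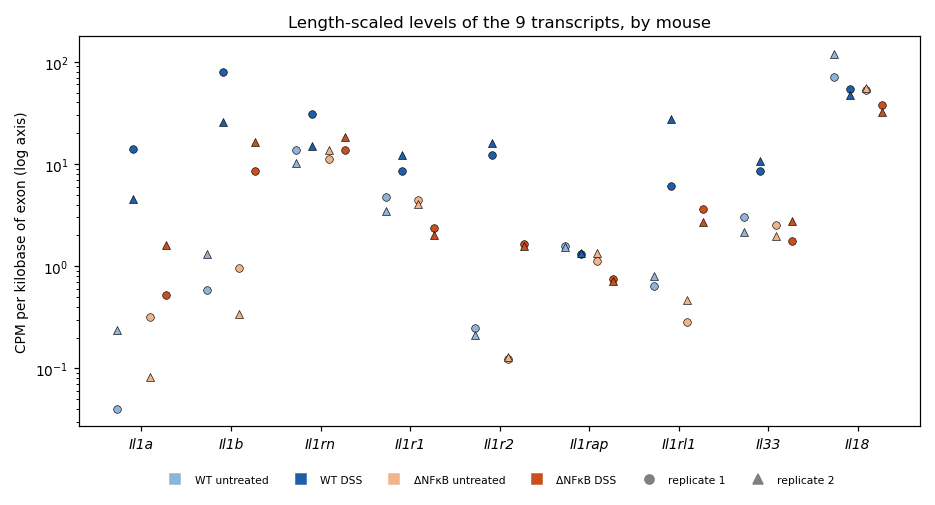
CPM per kilobase of exon for the 9 genes in each group, on a log axis, with each point a mouse. Il18 leads in both untreated groups and in ΔNFκB DSS mice, and shares the top with Il1b in WT DSS mice.

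Counted over the 9 genes, 7 rose and 1 fell with DSS in WT mice, where 36% of all genes tested were called (17.2% higher and 18.8% lower). In ΔNFκB mice 3 rose and 2 fell, where 35.4% of all genes tested were called (16.2% higher and 19.2% lower). The median log2 fold change of the 9 was 1.90 in WT and 0.38 in ΔNFκB mice, and over all genes tested it was 0.0024 and -0.038. The number of members called ranged from 6 to 7 in WT and from 3 to 6 in ΔNFκB mice when each library was left out in turn. In ΔNFκB mice it was 3 with a sex term.

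Without DSS the genotypes were compared for the same 9 genes, and by the edgeR test none passed, where 0.388% of all genes tested were called (0.0399% higher and 0.348% lower). With edgeR and no adjustment 1 gene passed 0.05, Il18; DESeq2 called the same 1 gene and limma-voom called 0. Il18 was 0.82 lower on the log2 scale in ΔNFκB mice (SE 0.22, adjusted p = 0.171 with edgeR), and the pairs of mice did not overlap. It was -0.42 without WT untreated replicate 2, the male of the WT pair, and -1.17 without WT untreated replicate 1. The Il18 difference was past the threshold with a sex term (-1.14, adjusted p = 0.0226 with edgeR) and without a count filter. Because the sex term rests on the WT untreated pair alone, it is close to the fit without replicate 1 and adds no separate support. Il1b differed by -0.56 (adjusted p = 0.803), Il1a by 0.46 (adjusted p = 0.891), Il1r1 by 0.049 (adjusted p = 0.937) and Il33 by -0.21 (adjusted p = 0.751).

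After DSS, 7 of the 9 genes were lower in ΔNFκB than in WT mice and 0 higher, where 20% of all genes tested were called (8.32% higher and 11.7% lower). The log2 difference was -3.13 for Il1r2 (SE 0.22, 8.73-fold, adjusted p = 0.000796) and -3.11 for Il1a (SE 0.71, adjusted p = 0.0211). For the IL-33 axis it was -2.09 for Il33 (SE 0.27, adjusted p = 0.00332) and -2.42 for Il1rl1 (SE 0.59, adjusted p = 0.0251). It was -2.24 for Il1r1 (SE 0.22, adjusted p = 0.0019), -2.07 for Il1b (SE 0.55, adjusted p = 0.0329) and -0.86 for Il1rap (SE 0.16, adjusted p = 0.0102). Il1rn differed by -0.51 (SE 0.31, adjusted p = 0.284) and Il18 by -0.54 (SE 0.23, adjusted p = 0.13), which passed in 4 alternatives, a sex term among them (adjusted p = 0.0226). All 4 mice of this comparison were female.

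The calls for Il1r1, Il1r2 and Il33 held under each alternative, and the others did not. Without WT DSS replicate 1 the difference was -2.07 for Il1a and -1.02 for Il1b, neither past the threshold, and that of Il1rn turned to 0.11. Without WT DSS replicate 2 the difference was -0.95 for Il1rl1 and not past the threshold, and the Il1rap call was lost. Other omissions deepened differences: with WT DSS replicate 1 omitted Il1rl1 was -3.11, and with the other WT DSS mouse omitted Il1a was -3.70 and Il1b -2.66. Leaving out either ΔNFκB DSS mouse lost the calls for Il1a (-2.50 without replicate 1 and -4.16 without replicate 2), Il1b and Il1rl1, and leaving out replicate 2 also that for Il1rap. The Il1b call was lost with DESeq2 (adjusted p = 0.0771) and with the replicate block (adjusted p = 0.0544), and the Il1rl1 call with limma-voom. Between 3 and 8 of the 9 genes were called when each library was left out in turn.

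Marker lists differed between the DSS groups as well. In ΔNFκB mice 10 of 12 neutrophil, 9 of 10 stromal and 6 of 8 endothelial markers were lower and 0 of each were higher, at the sums given above. Of 10 colon epithelial markers 5 were higher and 1 lower, and of 3 tested mast cell markers 1 was higher and 2 lower. Over all genes tested 8.32% were higher and 11.7% lower. Without ΔNFκB DSS replicate 2 the lower counts were 3 neutrophil, 4 stromal and 3 endothelial markers, and 0 epithelial markers were higher. Neutrophil counts were 6 without either WT DSS mouse and 5 without ΔNFκB DSS replicate 1, and in each of these 3 fits 1 epithelial marker was higher. The part of these cells in the 7 differences was not tested.

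**Figure D4:**
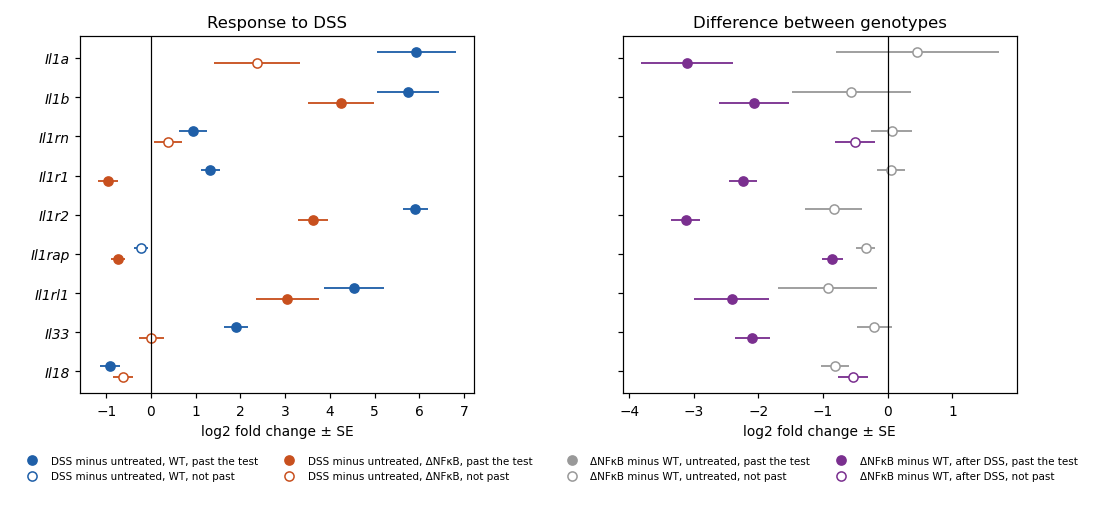
Log2 fold changes of the 9 genes with 1 SE, for DSS in each genotype and for ΔNFκB against WT without and after DSS; filled points passed the edgeR test. After DSS 7 of the 9 genes are lower in ΔNFκB mice, and without DSS none passed.

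Whether the DSS responses themselves differed was tested as an interaction, the ΔNFκB response minus the WT response. It was past the threshold in 3 of 9 genes, all with a lower response in ΔNFκB mice, where 17.7% of all genes tested were called (8.63% higher and 9.07% lower). For Il1r1 the difference of responses was -2.29 on the log2 scale (SE 0.30, adjusted p = 0.00694), a rise in WT against a fall in ΔNFκB mice, and it held under each alternative. For Il33 it was -1.89 (SE 0.38, adjusted p = 0.0176), and the call was lost without WT DSS replicate 2 (adjusted p = 0.0679), ΔNFκB untreated replicate 1 (0.0645) or ΔNFκB DSS replicate 1 (0.0502). For Il1r2 it was -2.29 (SE 0.55, adjusted p = 0.0407), and this call was lost with DESeq2, limma-voom, no count filter and most single libraries left out.

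The remaining 6 genes were not past the threshold in the test of responses. The estimates were -3.57 for Il1a (SE 1.49, adjusted p = 0.129), -1.50 for Il1b (SE 1.09, adjusted p = 0.355) and -1.49 for Il1rl1 (SE 0.97, adjusted p = 0.305). These 3 genes had the widest standard errors of the 9. Il1a passed with DESeq2 (-3.56, adjusted p = 0.0127) and without a count filter (-3.53, adjusted p = 0.034), and Il1rl1 passed without WT DSS replicate 1 (-2.18, adjusted p = 0.0232). When each library was left out in turn, the estimate ran from -5.29 to -2.33 for Il1a, from -2.22 to -0.46 for Il1b and from -2.18 to -0.024 for Il1rl1. Il1rap gave -0.51 (SE 0.22, adjusted p = 0.137), Il1rn -0.56 (SE 0.45, adjusted p = 0.393) and Il18 0.28 (SE 0.32, adjusted p = 0.557). The 4 pairwise comparisons and the interaction share samples, so their values are given side by side and not correlated.

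Most other ligands of the family were not detected. Of 6 symbols in the table, Il1f5, Il1f8 and Il1f10 were at 0 in each of the 8 libraries, and Il1f9 and Il18bp passed the count filter. Il1f9, the older name of IL-36γ, had 3 counts over the WT untreated pair and 1 over the ΔNFκB untreated pair, against 10.8 and 6.41 CPM in WT DSS and 2.36 and 1.55 in ΔNFκB DSS mice. Il18bp encodes the secreted protein that binds and neutralises IL-18. It measured 6.55 and 7.78 CPM in WT untreated, 17.1 and 23.0 in WT DSS, 8.44 and 9.03 in untreated ΔNFκB and 51.7 and 70.2 in ΔNFκB DSS mice. After DSS it was higher in ΔNFκB than in WT mice, by 1.604 on the log2 scale (SE 0.20, adjusted p = 0.00318), with no overlap between those groups. It rose by 1.48 on the log2 scale in WT (SE 0.21, adjusted p = 0.00184) and, in ΔNFκB mice, by 2.80 (SE 0.21, adjusted p = 0.000157), a difference of responses of 1.32 (adjusted p = 0.024).

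Of 6 other receptors of the family, 4 passed the count filter and 1 rose with DSS in each genotype. That gene was Il18rap, the accessory chain of the IL-18 receptor, at 1.12 and 0.939 CPM in WT untreated, 16.8 and 21.7 in WT DSS, 1.97 and 1.06 in untreated ΔNFκB and 5.33 and 5.36 in ΔNFκB DSS mice. It rose by 4.22 on the log2 scale in WT (SE 0.32, adjusted p = 0.000145) and, in ΔNFκB mice, by 1.81 (SE 0.31, adjusted p = 0.00341), and the responses differed by -2.41 (adjusted p = 0.0143). The ligand-binding chain Il18r1 differed by 1.35 in WT (adjusted p = 0.0898) and 0.89 in ΔNFκB mice (adjusted p = 0.284). Sigirr, an inhibitory receptor of the family, differed by 0.13 (adjusted p = 0.495) and 0.39 (adjusted p = 0.0647). Il1rl2, the IL-36 receptor chain, differed by 0.30 in WT (adjusted p = 0.528) and -1.13 in ΔNFκB mice (adjusted p = 0.0538).

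Of 12 receptor-proximal signalling genes 1 rose and 1 fell with DSS in WT mice, and 3 rose and 1 fell in ΔNFκB mice. Over all genes tested 36% were called in WT and 35.4% in ΔNFκB mice. The list medians were 0.12 and 0.15 on the log2 scale. With a sex term 1 of the 12 rose in ΔNFκB mice. Irak3, a kinase-like inhibitor of the pathway, measured 4.63 and 4.36 CPM in WT untreated, 17.7 and 24.3 in WT DSS, 4.97 and 3.99 in untreated ΔNFκB and 6.04 and 6.08 in ΔNFκB DSS mice. WT DSS mice stood apart from the other 6. Irak3 rose by 2.22 on the log2 scale in WT (SE 0.22, adjusted p = 0.000369), differed by 0.44 in ΔNFκB mice (adjusted p = 0.176), and the responses differed by -1.79 (adjusted p = 0.0128). Peli1, a ubiquitin ligase of the pathway, fell by 0.58 in WT (adjusted p = 0.0116) and, in ΔNFκB mice, by 0.51 (adjusted p = 0.0182). The adaptor Myd88 differed by 0.44 in WT (adjusted p = 0.0601) and rose by 0.90 in ΔNFκB mice (adjusted p = 0.00383), and the kinase Irak1 differed by 0.25 (adjusted p = 0.0811) and rose by 0.64 (adjusted p = 0.00208).

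Of 14 inflammasome and processing genes 3 rose and 4 fell with DSS in WT mice, where 36% of all genes tested were called. In ΔNFκB mice 6 rose and 0 fell, where 35.4% of all genes tested were called. The 6 became 0 to 3 when either mouse of a ΔNFκB group was left out, and the 4 became 2 without WT DSS replicate 2. Nlrp3, an inflammasome sensor of myeloid cells, measured 1.04 and 0.537 CPM in WT untreated, 30.3 and 11.9 in WT DSS, 0.394 and 0.569 in untreated ΔNFκB and 2.66 and 3.92 in ΔNFκB DSS mice. Like Il1a and Il1b it was highest in WT DSS replicate 1. It rose by 4.75 on the log2 scale in WT (SE 0.54, adjusted p = 0.000669) and, in ΔNFκB mice, by 2.75 (SE 0.63, adjusted p = 0.0115). The sensor Mefv rose by 4.39 in WT (adjusted p = 0.00181) and, in ΔNFκB mice, by 1.97 (adjusted p = 0.0348), and the pore protein Gsdmd rose by 0.73 (adjusted p = 0.0202) and 0.78 (adjusted p = 0.0161).

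Nlrp6, a sensor known from colon epithelium, measured 200.4 and 286 CPM in WT untreated, 84.4 and 79.1 in WT DSS, 143 and 261 in untreated ΔNFκB and 201 and 225 in ΔNFκB DSS mice. Only the WT DSS mice were low. It fell by 1.57 on the log2 scale in WT (SE 0.28, adjusted p = 0.00393), differed by 0.082 in ΔNFκB mice (adjusted p = 0.838), and the responses differed by 1.65 (adjusted p = 0.0258). Casp1, the protease that cleaves IL-1β and IL-18, is named after its values were seen. It measured 85.5 and 124 CPM in WT untreated, 46.4 and 49.0 in WT DSS, 66.8 and 84.0 in untreated ΔNFκB and 81.0 and 109 in ΔNFκB DSS mice, falling by 1.14 in WT (adjusted p = 0.00511) and differing by 0.33 in ΔNFκB mice (adjusted p = 0.246). The responses differed by 1.47 (adjusted p = 0.0174). In WT mice the colon epithelial marker sum fell alongside, as given above, and its part was not tested.

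Of 18 genes known to be induced by IL-1, 16 passed the count filter. Among them Cxcl1, Cxcl2, Csf3, Il6 and Saa3 were below the level of that filter in each untreated mouse. These had little room for a lower call, and their part in the counts and medians was not tested. Of the 16, 14 rose with DSS in WT mice and 10 in ΔNFκB mice, with 0 lower in either. Their median log2 fold change was 3.86 in WT and 1.69 in ΔNFκB mice, or 1.30 in ΔNFκB mice with Il6 and Saa3, which were at 0 in the untreated group, set at their bound. Zc3h12a, an RNase that limits cytokine transcripts, rose by 2.62 in WT (SE 0.19, adjusted p = 0.000123) and, in ΔNFκB mice, by 3.00 (SE 0.19, adjusted p = 9.13e-05). Saa3, an acute phase protein, reached 141 and 150.4 CPM in WT DSS mice and 6.45 and 7.42 in ΔNFκB DSS mice, and was at 0 in both ΔNFκB untreated mice. The neutrophil chemokine Cxcl2, with 3 counts over each untreated pair, reached 53.9 and 49.7 CPM in WT DSS and 6.76 and 11.9 in ΔNFκB DSS mice. After DSS 8 of the 16 were lower in ΔNFκB than in WT mice and 0 higher. Over all genes tested 11.7% were lower and 8.32% higher in that comparison. The count of lower genes was smaller without ΔNFκB DSS replicate 2. Many other signals induce these genes too, and neutrophil and stromal marker sums moved with them as given above.

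Of 12 genes tied to IL-33 and type 2 responses, 8 passed the count filter. Of the 8, 2 rose and 1 fell with DSS in WT mice, while 0 rose and 3 fell in ΔNFκB mice. The called share over all genes tested was 36% in WT and 35.4% in ΔNFκB mice. The cytokine genes Il4, Il5 and Il13 were among those listed at 0 in 1 or more groups, and Il5 was at 0 in WT and ΔNFκB untreated and DSS mice alike. Gata3, a transcription factor of type 2 lymphocytes, measured 0.479 and 0.268 CPM in WT untreated, 7.44 and 5.31 in WT DSS, 7.10 and 0.244 in untreated ΔNFκB and 2.36 and 2.68 in ΔNFκB DSS mice. The ΔNFκB untreated pair spread over nearly the whole range of the other mice. Gata3 rose by 4.08 in WT (SE 1.16, adjusted p = 0.0271) and differed by -0.55 in ΔNFκB mice (adjusted p = 0.691). Rora, a nuclear receptor of innate lymphoid cells also expressed by other cells, differed by 0.086 in WT (adjusted p = 0.811) and fell by 2.07 in ΔNFκB mice (SE 0.28, adjusted p = 0.00117), with responses that differed by -2.15 (adjusted p = 0.0124). Retnla, a product of alternatively activated macrophages and epithelium, went from 3.59 and 7.31 CPM to 1 count over the WT pair and from 3.00 and 5.12 CPM to 3 counts over the ΔNFκB pair. Mcpt2, a mucosal mast cell protease, had 3 counts over each untreated pair and 1.16 and 0.824 CPM in WT DSS and 0.717 and 0.618 in ΔNFκB DSS mice.

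**Figure D5:**
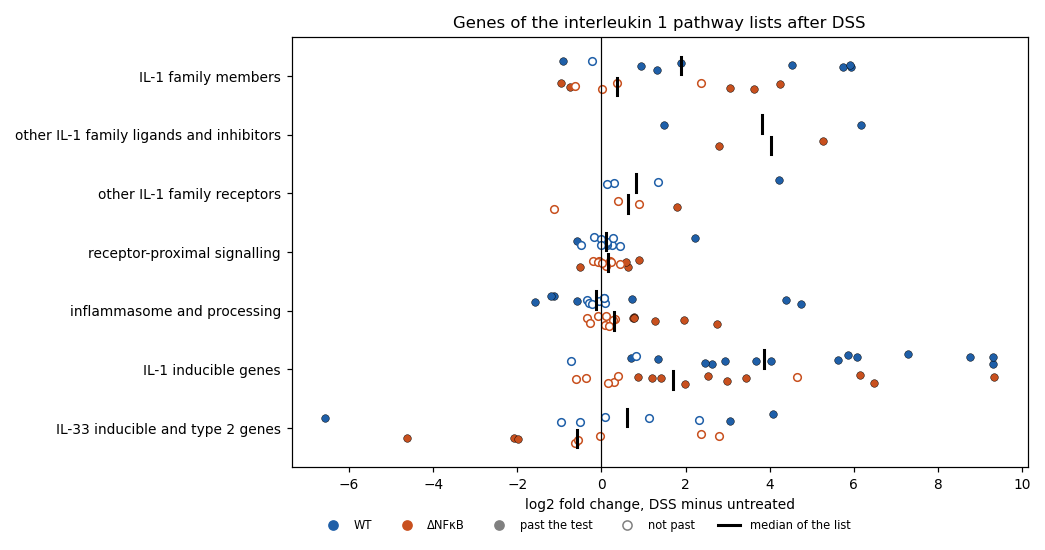
Log2 fold change with DSS of each tested gene of 7 lists, in WT (blue) and ΔNFκB mice (orange); filled points passed the edgeR test and bars are list medians. IL-1 inducible genes have medians of 3.86 and 1.69 and the 2 tested ligands and inhibitors 3.83 and 4.04, while receptor-proximal genes have medians of 0.12 and 0.15; values of genes with no untreated counts depend on the prior count.

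For each of the 9 genes, the genes with the most similar log2 CPM over the 8 libraries were looked up among 12460 expressed genes, as a description over 8 libraries that share the DSS contrast and their depth. Il1b was closest to Acod1 (Pearson r = 0.986), the gene of the itaconate-producing enzyme of activated macrophages, and Il1a to Plek (r = 0.980), a platelet and leukocyte protein. Il1r2 was closest to Saa3 (r = 0.996) and Mmp9 (r = 0.993), a protease stored in neutrophils. Il1r1 was closest to Rnf150 and Cd200 (r = 0.995 for both), Il33 to Apcdd1 (r = 0.984) and Il1rl1 to Hgf (r = 0.977), which encodes hepatocyte growth factor. Il1rn was closest to Unc45a (r = 0.973), Il1rap to Kcnt2 (r = 0.981) and Il18 to Rps27a (r = 0.977). Among the 9 genes themselves, Il1a with Il1b (r = 0.957), Il1r2 with Il1rl1 (r = 0.961) and Il1b with Il1r2 (r = 0.942) ran together, as did Il1r1 with Il33 (r = 0.870) and Il1rap with Il18 (r = 0.817).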

How the data were processed

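Total RNA of distal colon was sequenced from 8 mice. Per the submitters' processing notes the authors used HISAT2 2.1, SAMtools 1.8, featureCounts, Subread 1.6.2 and the mm10 genome; not given in the sources used here are the annotation release, the strand setting and how multi-mapped reads were handled. The authors deposited expected counts per gene without normalization, of which 18.8% of nonzero values were not whole, at exact equality. They were rounded, although the plan had assumed whole counts. Lines of the 115 repeated symbols were added together. Gene positions and exon lengths come from the GENCODE mouse annotation of the same build, and promoters from RefSeq.

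One edgeR 4.0.16 quasi-likelihood fit of 4 group means (R 4.3.3, filterByExpr, TMM, 4 residual degrees of freedom) yielded log2 changes with two-sided p-values and Benjamini-Hochberg adjustment over 17522 genes, with 0.05 as the threshold. Each SE was computed as the size of the log2 change over the root of its F statistic. Every library entered each fit unless it was left out as an alternative. Labels call the samples mice of a group and give no pairing. An exact permutation of 2 against 2 mice cannot reach 0.05, so only the ratios, with genotypes pooled, have one.

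As alternatives, scaling used upper quartile or RLE factors, the test was DESeq2 1.42.0 or limma-voom (limma 3.58.1), genes were not filtered or needed a CPM of 1 in 2 libraries, and a replicate block or a sex term was added. Further fits used only the groups compared, dropped antigen receptor, ribosomal RNA and mitochondrial genes, or omitted 1 library at a time. The 9 genes and all gene lists were chosen with earlier results of these data known. Named genes are the 9, up to 3 genes of each other list with the smallest p for DSS in WT and up to 2 in ΔNFκB mice, and the 2 genes most correlated with each of the 9, of which the text gives 1 or both. Of the marker lists only counts and sums are given. Markers of regulatory T and innate lymphoid cells summed to 79.7 to 115 CPM in every group, smooth muscle markers fell in 7 of 7 in both genotypes, and stratified squamous markers rose in 3 of 6. In simulated data with 200 changed genes, the fit recovered 28% to 31% of 2-fold and 78% to 84.5% of 4-fold changes in the pairwise comparisons. In the difference of responses it recovered 0% and 67.5%. Far more genes were called for DSS, between DSS groups and for the difference of responses, so these rates may not hold there.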

Additional observations from a re-analysis of the deposited data

Results flagged for a closer look

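A set of 3 genes stood out because their DSS responses differed between the genotypes by the interaction test. The response in ΔNFκB mice minus that in WT mice was -2.29 on the log2 scale for Il1r1, -2.29 for Il1r2 and -1.89 for Il33. Groups of 2 mice allowed no test for outlying samples.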

How the results depend on the processing

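Groups of 2 mice leave calls open to single libraries. Leaving out each library in turn gave 3298 to 6228 genes for DSS in WT mice (6 to 7 of the 9), 3373 to 6548 for DSS in ΔNFκB mice (3 to 6), 0 to 200 between untreated genotypes (0 to 1), 484 to 3781 between DSS groups (3 to 8) and 489 to 3669 for the difference of responses (1 to 4). The reduced group then has 1 mouse, assumed to vary like the others. With a sex term 3343 genes and 3 of the 9 were called for DSS in ΔNFκB mice. Between untreated genotypes DESeq2 called 266 genes, no filter 330, the sex term 176 and the fit of only those groups 0, and the first 3 each called 1 of the 9.

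The replicate block called 0 genes between untreated genotypes. Deviations of same-numbered mice correlated from -0.126 to 0.244, the highest between the 2 ΔNFκB groups. The labels give no pairing, and correlations between groups of 2 cannot show whether same-numbered mice share more than a number. Under the block the WT Il1rn call (adjusted p = 0.0585) and the Il1b call between DSS groups (0.0544) were lost.

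Small differences changed sign, for causes not tested. For DSS in ΔNFκB mice, Il33 was -0.0497 with upper quartile factors, -0.0117 with limma-voom and -0.45 with a sex term, and ran from -0.31 to 0.30 over the libraries left out. With the sex term Il1rn was -0.064 and Il18 0.11 there. Between untreated genotypes the sex term gave -0.23 for Il1a and 0.0392 for Il33. Leaving out a library gave -0.81 to 2.15 for Il1a, -1.51 to 0.12 for Il1b, -0.17 to 0.27 for Il1rn, -0.18 to 0.26 for Il1r1 and -0.45 to 0.0121 for Il33, with the sign set by an untreated mouse in each. Between DSS groups Il1rn ran from -0.92 to 0.11, positive without WT DSS replicate 1. In the difference of responses Il1rn ran from -0.98 to 0.0523, positive without the same mouse, and Il18 from -0.15 to 0.59, negative without WT untreated replicate 2. The ratios kept their direction under each alternative; with 3 against 4 libraries the exact permutation p cannot go below 0.0571.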
